A study of Mus musculus with 25 samples.

Results

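The genes of glucose breakdown were followed in macrophages across 9 conditions. The set holds 40 genes of glucose and lactate transport, glycolysis, the pentose phosphate pathway, the entry of pyruvate into the mitochondrion and the tricarboxylic acid (TCA) cycle, with Hif1a beside them. They were chosen by gene symbol from the 24411 symbols in the count files. Bone marrow-derived macrophages (BMDMs) of C57BL/6 mice were differentiated with M-CSF at 25 ng/ml over 4 days, which turns bone marrow precursors into macrophages, and formed 7 groups of 3 samples. Of these, 1 group was the control, cultured for 4 h. A further 4 groups received IFN-γ (100 U/ml) as priming and then LPS (100 ng/ml), which acted for 1, 4, 12 or 24 h. The last groups received 10 ng/ml IL-4 or IL-13 for 12 h. The control of 4 h was the only one for every time and for both cytokines, so the time in culture differs together with treatment at 1, 12 and 24 h. RAW264.7, a mouse macrophage cell line, formed 2 groups of 2 samples, a control of 4 h and 4 h of 100 ng/ml LPS without IFN-γ. The study traces the line to Balb/c mice, and it was kept in another medium than the BMDMs. Cell source, mouse strain, medium and priming therefore cannot be told apart when the cells are compared.

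Glycolysis splits glucose into pyruvate in the cytosol. Hexokinase and phosphofructokinase spend ATP in its upper part, and phosphoglycerate kinase and pyruvate kinase make ATP in its lower part. The pentose phosphate pathway branches off at glucose 6-phosphate and makes NADPH and ribose, and pyruvate dehydrogenase carries pyruvate towards the TCA cycle. Macrophages exposed to LPS are known for high glycolysis, with a TCA cycle interrupted at isocitrate and succinate, whereas IL-4 is known for an intact cycle. HIF-1α, the protein of Hif1a, is a transcription factor that binds DNA at ACGTG and is known to act on many glycolytic genes.

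Promoters are shown first, with the letters of the HIF core that were searched in them. The 250 bases before each start site were read from RefSeq (GRCm38.p6), and 39 of the 40 genes had an entry, all but Idh3a. ACGTG was searched on both strands, where it reads CACGT on the other strand, and the E-box CACGTG contains it on both. It stood in 18.5% of 27025 symbols with an entry. Among the 39 genes with an entry it stood in 15 (38.5%). Of the 17 genes higher at 12 h, 11 (64.7%) carried it, against 1 of the 7 that were lower (14.3%) and 3 of the 14 that were not called (21.4%). Those 11 genes were Slc2a1, Slc16a3, Hk2, Hk3, Aldoa, Pfkfb3, Pgk1, Pkm, Ldha, Pdk3 and Hif1a. A match is a description of letters and not a binding site, and these counts received no test. The genes were chosen with earlier results of these data known, and HIF-1α is known to act on many glycolytic genes. The shares above cannot be told apart from that choice. The 27025 symbols include genes with few or no counts in these cells, and the sets were not matched for expression or base content. A gene with several listed starts was counted where any of its windows held the letters, which touches 12 of the 39 genes. Among genes with 1 listed start, 7 of the 12 that were higher (58.3%), 1 of the 4 that were lower and 1 of the 11 not called (9.09%) carried them, beside 16.3% of 22862 such symbols. Below are the last 150 bases before the start of 7 of them, chosen after their values were seen because they span the path from glucose uptake to lactate export and the factor itself. Capitals mark ACGTG or CACGT.
Slc2a1, chr4:119108595-119108744, plus strand: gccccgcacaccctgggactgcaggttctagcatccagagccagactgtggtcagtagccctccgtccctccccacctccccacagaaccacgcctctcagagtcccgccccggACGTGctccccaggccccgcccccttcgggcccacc
Hk2, chr6:82774455-82774604, minus strand: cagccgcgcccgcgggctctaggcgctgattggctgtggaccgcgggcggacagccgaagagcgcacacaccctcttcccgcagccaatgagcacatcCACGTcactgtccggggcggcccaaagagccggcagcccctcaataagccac
Pfkfb3, chr2:11502091-11502240, minus strand: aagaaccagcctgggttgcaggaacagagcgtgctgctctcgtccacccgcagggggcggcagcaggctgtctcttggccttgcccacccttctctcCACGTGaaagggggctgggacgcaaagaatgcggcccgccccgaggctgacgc
Pgk1, chrX:106186950-106187099, plus strand: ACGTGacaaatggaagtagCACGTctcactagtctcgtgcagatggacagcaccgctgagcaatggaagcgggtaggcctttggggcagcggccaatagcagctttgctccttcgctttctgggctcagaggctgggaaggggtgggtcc
Ldha, chr7:46845654-46845803, plus strand: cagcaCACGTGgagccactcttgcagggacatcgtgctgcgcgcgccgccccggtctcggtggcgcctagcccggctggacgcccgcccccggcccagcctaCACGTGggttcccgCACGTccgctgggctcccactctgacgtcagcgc
Slc16a3, chr11:120948917-120949066, plus strand: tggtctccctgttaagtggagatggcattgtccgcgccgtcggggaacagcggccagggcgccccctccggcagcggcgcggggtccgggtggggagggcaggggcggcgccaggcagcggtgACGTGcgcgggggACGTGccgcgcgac
Hif1a, chr12:73907717-73907866, plus strand: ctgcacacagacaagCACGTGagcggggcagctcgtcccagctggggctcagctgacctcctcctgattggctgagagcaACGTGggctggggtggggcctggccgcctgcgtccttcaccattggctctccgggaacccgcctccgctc
Slc2a1 carried the letters 36 bases before its start, and Hk2 carried them 52 bases before it. The Pfkfb3 window belongs to 1 of its 2 listed starts and holds an E-box, which begins 53 bases before the start. Ldha also has 2 listed starts. The window shown has an E-box 145 and another 48 bases before its start and a further CACGT at 34 bases, and the window of the other start held none of these letters. In Idh1, which fell most at 12 h, neither window of 250 bases held these letters.

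The count on the sense strand was used, without Rn45s, the ribosomal RNA precursor, which took 20.1% to 39.8% of the counts on genes. That left 1502618 to 2532496 counts per sample (median 1776162). A CPM value is a count divided by the library's total, after TMM, a normalization that centres most genes on no change, has adjusted that total. At this depth 1 count was worth 0.347 to 0.886 CPM, depending on the library. Genes below about 10 CPM therefore rest on few counts. Of 9 macrophage markers, all were found in BMDMs, with a summed level of 19200 to 33390 CPM over the 21 samples. In RAW264.7 the sum was 8666 to 10600 CPM and Mertk was at 0. Lyz2 made up most of these sums, with means of 20580 CPM in control BMDMs and 6489 CPM in control RAW264.7. Single markers moved in both directions. From control to 24 h of IFN-γ-primed LPS, the mean of Adgre1 rose from 968 to 4272 CPM and that of Cd68 fell from 859 to 355 CPM. Markers of T, B, mast and erythroid cells were at or near 0, and those of granulocyte precursors and dendritic cells summed to 4.47 CPM or less in every sample. The 4 fibroblast collagen and matrix genes summed to 52.4 to 109 CPM in BMDMs, in ranges that overlapped between the 7 groups, and were at 0 in RAW264.7. Fewer cells of a type and less RNA per cell cannot be told apart in bulk samples. The labels do not say whether the 3 samples of a group came from separate mice, so a p-value here may not cover differences between mice. The spread behind it is estimated in edgeR with information from all genes and groups of a fit. It does not come from the samples of 1 gene alone.

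The time course answered which of these genes changed after IFN-γ-primed LPS, and when. Of the 40 genes, 39 passed the filter on low counts and Eno1 did not. A gene is called higher or lower at an adjusted p of at most 0.01 in the quasi-likelihood test of edgeR, adjusted by Benjamini-Hochberg over all genes tested, at any size of change. At 1 h, 11 genes were higher and 4 lower, while 14.7% of all genes tested were higher and 11.3% lower. At 4 h, 11 were higher and 9 lower, beside 26% and 25.6% of all genes. At 12 h, 17 were higher and 7 lower, beside 23.9% and 23.4%. At 24 h, 19 were higher and 6 lower, beside 23.9% and 21.3%. So the share of these genes that was higher at 4 h (11 of 39) was near that of all genes, and the share that was lower lay near or under it at 4, 12 and 24 h. The median log2 fold change of the 39 genes was 0.14, 0.096, 0.18 and 0.33 at 1, 4, 12 and 24 h, beside −0.027, −0.075, −0.030 and 0.019 over all genes tested.

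These splits depend on TMM. Scaling by library size alone moves the median log2 fold change of all genes to −0.22, −0.61, −0.34 and −0.21 for the same times. Under that scaling 9 of these genes were higher and 7 lower at 1 h, 7 and 20 at 4 h, 12 and 12 at 12 h, and 16 and 9 at 24 h. The changes given here are therefore relative to the bulk of expressed genes. The 24 h samples also differ in a technical measure. Counts on the opposite strand of Rn45s made up 0.0104%, 0.0118% and 0.0162% of its counts there. In the control, 1, 4 and 12 h samples they made up 0.0386% to 0.122%. The part of this in the changes at 24 h was not tested.

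**Figure D1:**
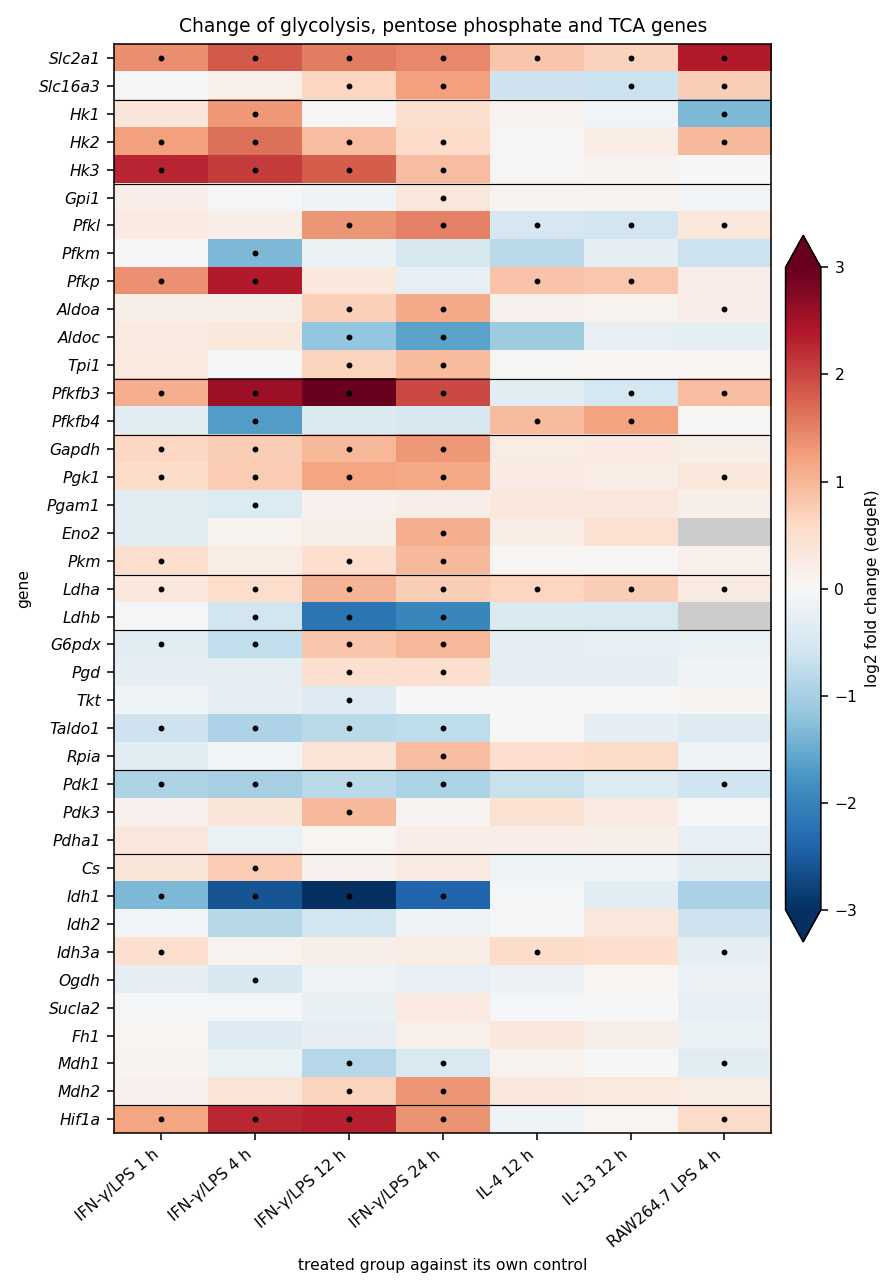
Log2 fold change of the 39 genes tested (rows, grouped by step) in each treated group against its own control (columns), from blue (lower) to red (higher), with colours saturating at 3 in either direction. Dots mark an adjusted p of at most 0.01, and grey marks genes not tested in RAW264.7. Hk3, Pfkfb3 and Hif1a are red at all 4 times of IFN-γ-primed LPS, and Idh1 is blue at all 4.

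By step of the pathway, the counts were as follows. Among the 21 tested genes of transport, glycolysis and lactate dehydrogenase, 9, 9, 12 and 14 were higher at 1, 4, 12 and 24 h, and 0, 4, 2 and 2 were lower. Of 5 pentose phosphate genes, 0, 0, 2 and 3 were higher and 2, 2, 2 and 1 lower. Of 12 genes of the pyruvate dehydrogenase gate and the TCA cycle, 1, 1, 2 and 1 were higher and 2, 3, 3 and 3 lower. Over all genes tested, 14.7%, 26%, 23.9% and 23.9% were higher at these times, and 11.3%, 25.6%, 23.4% and 21.3% lower. The 3 of 12 gate and TCA genes that were lower at 4, 12 and 24 h lay near that share. The 5 pentose phosphate genes are too few to set against it. The summed level of the 22 glycolysis genes was 4830 ± 113 CPM (SD, n = 3) in control and 9552 ± 213 CPM at 24 h. Pkm and Aldoa were its largest parts, with means of 1533 and 966 CPM in control and 3020 and 2140 CPM at 24 h. The summed level of the 12 gate and TCA genes was 655 ± 13.0 CPM in control, 613 ± 22.2 CPM at 4 h, 554 ± 14.5 CPM at 12 h and 636 ± 27.2 CPM at 24 h. Its 4 and 12 h samples lay below all control samples, and those of 1 and 24 h overlapped with control. Idh1 and Mdh1, whose enzymes are cytosolic, are in this sum. From control to 12 h their means went from 62.0 to 7.36 CPM and from 170 to 96.8 CPM. With Pdk1 they were the only genes of the 12 called lower at 12 and 24 h. Pdk3 was called higher at 12 h, and Mdh2 at 12 and 24 h. Over the 4 times, 24 genes were higher at 1 or more and 8 at all 4, namely Slc2a1, Hk2, Hk3, Pfkfb3, Gapdh, Pgk1, Ldha and Hif1a. Lower at all 4 were Taldo1, Pdk1 and Idh1. The same was not counted over all genes tested, so these numbers are not read as a trait of the set. G6pdx was lower at 1 and 4 h and higher at 12 and 24 h, and Idh2, Pdha1, Sucla2 and Fh1 were called at no time.

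Slc2a1, the glucose transporter GLUT1, was read at 22, 17.9 and 20.8 CPM in control BMDMs. At 4 h of IFN-γ-primed LPS it reached 77, 72.2 and 77.1 CPM. Every treated sample at 1, 4, 12 and 24 h stood above every control sample, and the 4 h samples stood highest. The log2 fold change was 1.84 ± 0.17, edgeR adjusted p = 1.7e-13 at 4 h, and it was 1.39, 1.53 and 1.44 at 1, 12 and 24 h. Slc16a3, the lactate exporter MCT4, moved later. It was at 40.2, 38 and 36.9 CPM in control, 57.6, 37.3 and 39.4 CPM at 4 h and 90.9, 86.5 and 92.2 CPM at 24 h. The 24 h samples did not overlap any earlier group, and at 24 h the change was 1.22 ± 0.14 (log2, edgeR adjusted p = 2.7e-10). At 12 h it was 0.64 ± 0.15 (edgeR adjusted p = 4.1e-04), which was 0.32 and not called when scaled by library size alone.

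Hexokinases trap glucose as glucose 6-phosphate, and Hk3 was the most abundant of them. Per kb of exon, Hk3 stood at 75.7 CPM in control, Hk2 at 4.47 and Hk1 at 1.89, so that Hk3 made up 92.3% ± 1.73 (SD, n = 3) of the family and Hk1 2.30% ± 0.390. Per kb of the longest coding transcript these were 91.0% ± 1.69 and 3.95% ± 0.657. Hk3 was read at 287, 278 and 271 CPM in control and at 1408, 1331 and 1400 CPM at 1 h. It then stood at 1239 ± 55.5 CPM (SD, n = 3) at 4 h, 1015 ± 16.1 CPM at 12 h and 535 ± 59.2 CPM at 24 h. No sample of these groups overlapped with control, and the 1 h samples were the highest. Its log2 fold changes were 2.28 ± 0.091, edgeR adjusted p = 2.5e-26 at 1 h and 0.94 ± 0.09, edgeR adjusted p = 1.1e-12 at 24 h. Hk2, the inducible isozyme at the mitochondrial surface, went from 26.3, 18.4 and 35.3 CPM to 85, 83.9 and 95.2 CPM at 4 h. It was called at all 4 times, with 1.66 ± 0.17, edgeR adjusted p = 2.7e-12 at 4 h. At 24 h the change was 0.58 ± 0.17, the call was lost without control sample 1 or 2 or 24 h sample 1 (log2 fold change of 0.38 to 0.57), and scaling by library size gave 0.35. Hk1, the housekeeping isozyme, was called at 4 h, where it was at 42.5, 32.6 and 49.2 CPM against 19.9, 14.1 and 14.4 CPM in control (1.30 ± 0.25, edgeR adjusted p = 2.8e-05).

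Phosphofructokinase commits fructose 6-phosphate to glycolysis, and its isozymes moved at different times. Pfkp, the platelet type, was at 57.4, 52.6 and 46.5 CPM in control and 131, 127 and 152 CPM at 1 h. It peaked at 277, 265 and 301 CPM at 4 h and was back at 72.8, 59.8 and 68.9 CPM at 12 h. The 4 h samples lay above those of every other BMDM group. Its change was 2.37 ± 0.13, edgeR adjusted p = 2.6e-21 at 4 h, and from 4 to 12 h it was −2.05 ± 0.13, edgeR adjusted p = 1.7e-18. Pfkl, the liver type, moved later, from 83.2, 77.6 and 78.6 CPM in control and 108, 94.8 and 84.5 CPM at 4 h to 204, 197 and 216 CPM at 12 h. Its 12 and 24 h samples stood above all control, 1 h and 4 h samples (1.52 ± 0.11, edgeR adjusted p = 2.7e-17 at 24 h). Per kb, Pfkp therefore made up 19.3% ± 1.75 (SD, n = 3) of the family in control, 56.6% ± 1.88 at 4 h and 7.94% ± 1.37 at 24 h, and Pfkl 59.4% ± 0.545, 38.8% ± 5.16 and 84.5% ± 0.888. The size of these shares depends on the length used, since the union of Pfkp exons spans 13401 bases and its longest coding transcript 4145. Per kb of the longest coding transcript, an alternative added after seeing the data, Pfkp made up 32.3% ± 2.29 in control, 71.0% ± 2.18 at 4 h and 13.8% ± 2.18 at 24 h, and Pfkl 54.9% ± 0.654, 27.0% ± 3.65 and 81.4% ± 1.56. The order of the 3 groups is the same with either length. Pfkm, the muscle type, was at 13.9, 13 and 16 CPM in control and 2.66, 3.88 and 10.7 CPM at 4 h (−1.36 ± 0.35, edgeR adjusted p = 7.4e-04). The Pfkm call was lost without 4 h sample 1 or 2 (log2 fold change of −1.10 to −1.03).

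**Figure D2:**
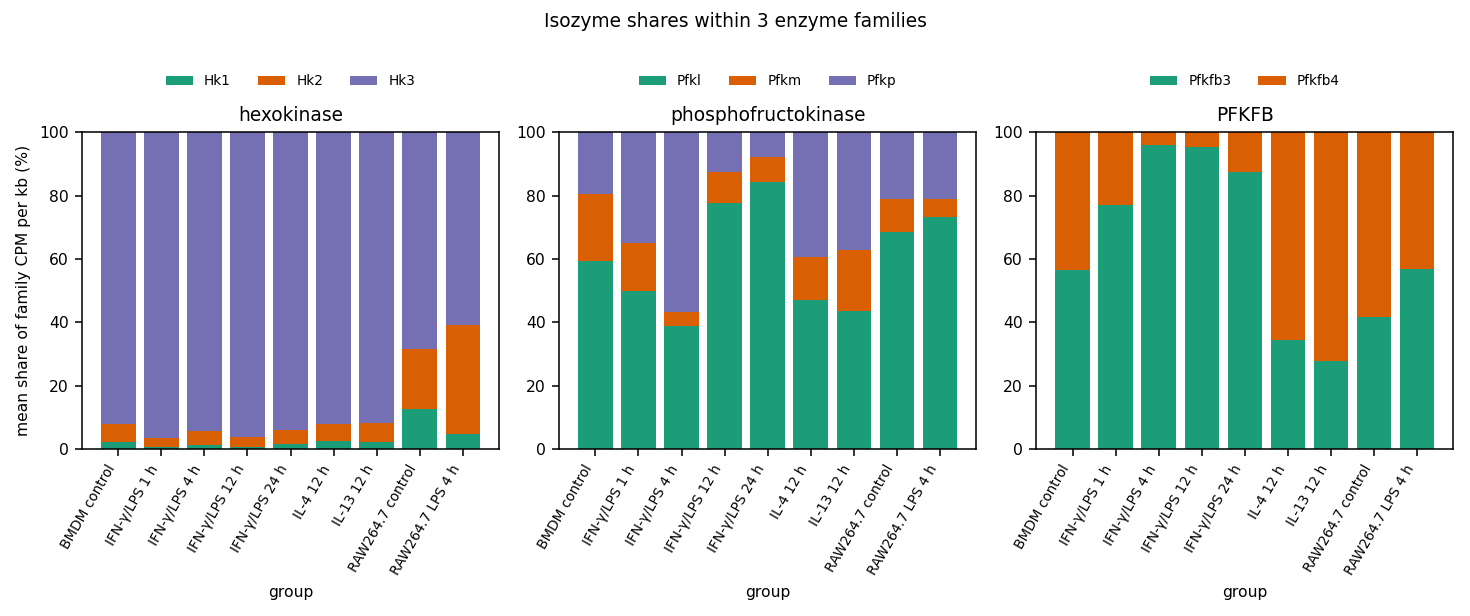
Mean share of each isozyme (y axis, %, from CPM per kb of exon) in the hexokinase, phosphofructokinase and PFKFB families in the 9 groups (x axis), as stacked bars of 3 BMDM or 2 RAW264.7 samples. Hk3 holds over 90% of the hexokinase bar in every BMDM group. Pfkp, whose share is higher per kb of transcript, holds 56.6% of its bar at 4 h and 7.94% at 24 h. The PFKFB bar is made of Pfkfb3 and Pfkfb4 alone. Of this pair, Pfkfb4 makes up 65.5% with IL-4 against 3.93% at 4 h of IFN-γ-primed LPS. Pfkfb1 and Pfkfb2 are left out, of which Pfkfb2 was at 42.9 CPM in control BMDMs and 31.7 CPM with IL-4.

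The PFKFB enzymes set the level of fructose 2,6-bisphosphate, which activates phosphofructokinase. Pfkfb3, the isoform with the highest kinase activity, was read at 52, 49.4 and 59.3 CPM in control and 369, 298 and 333 CPM at 4 h. At 12 h the samples gave 559, 562 and 917 CPM, and at 24 h 238, 194 and 202 CPM. All treated samples were above all control samples, and 1 of the 12 h samples stood far above the other two. Pfkfb3 had the largest rise of the 39 genes at 12 h, with 3.61 ± 0.18, edgeR adjusted p = 1.4e-13. Pfkfb4 moved otherwise, from 26.8, 20.1 and 34.2 CPM in control to 7.97, 6.21 and 12.3 CPM at 4 h. These groups did not overlap, and the change was −1.67 ± 0.27, edgeR adjusted p = 5.7e-07. It was not called at 1, 12 or 24 h (−0.34, −0.43 and −0.48). Pfkfb3 thereby made up 56.6% ± 4.35 (SD, n = 3) of the pair per kb in control and 96.1% ± 1.29 at 4 h.

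Of the remaining upper steps, aldolase and triose phosphate isomerase were higher from 12 h on. Aldoa, the main aldolase here, was at 981, 972 and 944 CPM in control, 1635, 1571 and 1686 CPM at 12 h and 2047, 2133 and 2238 CPM at 24 h, with no overlap (1.14 ± 0.081, edgeR adjusted p = 5.1e-17 at 24 h). At 4 h it was 0.17 and not called, whereas scaling by library size turned this to −0.36 with a call. Aldoc, the brain-type aldolase, fell from 11.3, 10.8 and 8.02 CPM to 2.93, 3.98 and 2.95 CPM at 24 h (−1.60 ± 0.34, edgeR adjusted p = 8.5e-05). It was also lower at 12 h (−1.15 ± 0.34, edgeR adjusted p = 0.0033), a call lost without control sample 1 or 2 or 12 h sample 2 or 3 (log2 fold change of −1.14 to −1.04). Tpi1, which interconverts the triose phosphates, rose to 502, 564 and 508 CPM at 24 h from 274, 261 and 276 CPM (0.95 ± 0.093, edgeR adjusted p = 1.8e-12). Gpi1, which turns glucose 6-phosphate into fructose 6-phosphate, was called at 24 h alone (0.33 ± 0.089, edgeR adjusted p = 0.0013), and under library size scaling this was 0.11 and not called.

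In the lower part of glycolysis, 4 genes rose at 1 or more times. Pgk1, phosphoglycerate kinase, was at 170.0, 172 and 142 CPM in control, 238, 251 and 237 CPM at 1 h and 356, 382 and 408 CPM at 12 h. All treated samples stood above all control samples (1.19 ± 0.098, edgeR adjusted p = 6.2e-15 at 12 h). Gapdh went from 387, 403 and 395 CPM to 980.0, 956 and 978 CPM at 24 h (1.29 ± 0.086, edgeR adjusted p = 5.4e-18), again without overlap. At 4 h both genes were called, at 0.75 and 0.74, while with library size scaling they were at 0.22 and 0.21 and not called. Pkm, pyruvate kinase, rose from 1603, 1497 and 1499 CPM to 2868, 3004 and 3189 CPM at 24 h (0.97 ± 0.091, edgeR adjusted p = 4.8e-13). At 4 h Pkm was 0.23 and not called, and turned to −0.30 with a call under library size scaling. Eno2, the neuronal enolase, rose at 24 h from 18.8, 15.2 and 16.6 CPM to 34.2, 43.8 and 31.2 CPM (1.09 ± 0.21, edgeR adjusted p = 1.3e-05). Pgam1, phosphoglycerate mutase, was lower at 4 h (−0.41 ± 0.13, edgeR adjusted p = 0.0044), a call lost without control sample 1, 2 or 3 or 4 h sample 2 or 3 (log2 fold change of −0.42 to −0.35).

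Levels of some of these genes are uncertain. Eno1, the enolase that most cells use, was listed at 0 in all 25 samples and was not tested. Of its 1927 stretches of 101 bases, 58.8% also occur in another gene, mostly Eno1b, a near-identical copy. Eno1b itself was listed at 0 in every control BMDM and at 97.1 and 119 CPM in control RAW264.7. The share of such stretches was 78.0% for Gapdh, 67.0% for Pgk1 and 39.7% for Pgam1, which had counts in all 25 samples. STAR assigns to genes only those reads that match a single place, so the levels of such genes are uncertain. Gene by gene they were not set against those of other genes. The summed levels of the 22 glycolysis genes do hold them, with Eno1 at 0, and share this uncertainty. Why Eno1 had no count was not tested.

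Lactate dehydrogenase had its subunits move in opposite directions. Ldha, whose subunit favours the making of lactate, was at 443, 420.4 and 414 CPM in control, 870.3, 813 and 1012 CPM at 12 h and 686, 746 and 713 CPM at 24 h. It was called at all 4 times, with 1.03 ± 0.087, edgeR adjusted p = 1.9e-14 at 12 h. Smaller changes stood at 1 h (0.31) and 4 h (0.53), which under library size scaling were 0.12 and −0.0027 and not called, so that the direction at 4 h turned. The 1 h call was also lost without control sample 2 or 3 or 1 h sample 1 or 2 (log2 fold change of 0.29 to 0.31). Ldhb, whose subunit favours the use of lactate, was at 30.6, 28.2 and 35.3 CPM in control and 6.35, 7.15 and 7.65 CPM at 12 h. It remained near that level at 24 h, at 6.84, 8.95 and 8.42 CPM. The 12 and 24 h samples lay below every control, 1 h and 4 h sample (−2.19 ± 0.23, edgeR adjusted p = 2.2e-11 at 12 h). The smaller change at 4 h (−0.58 ± 0.20, edgeR adjusted p = 0.0095) was lost in 14 of the 15 fits that left out 1 sample, with values from −0.60 to −0.49.

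Hif1a was at 79.9, 90.6 and 85.5 CPM in control and 200.3, 184 and 205 CPM at 1 h. It reached 371, 471 and 429 CPM at 4 h and 448, 464 and 427 CPM at 12 h, and was at 193, 230.2 and 229.5 CPM at 24 h. Every treated sample was above every control sample, and the 4 and 12 h groups overlapped. The change was 2.34 ± 0.11, edgeR adjusted p = 2.6e-24 at 12 h and 1.34 at 24 h. From 4 to 12 h it was 0.083 ± 0.096 and not called.

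**Figure D3:**
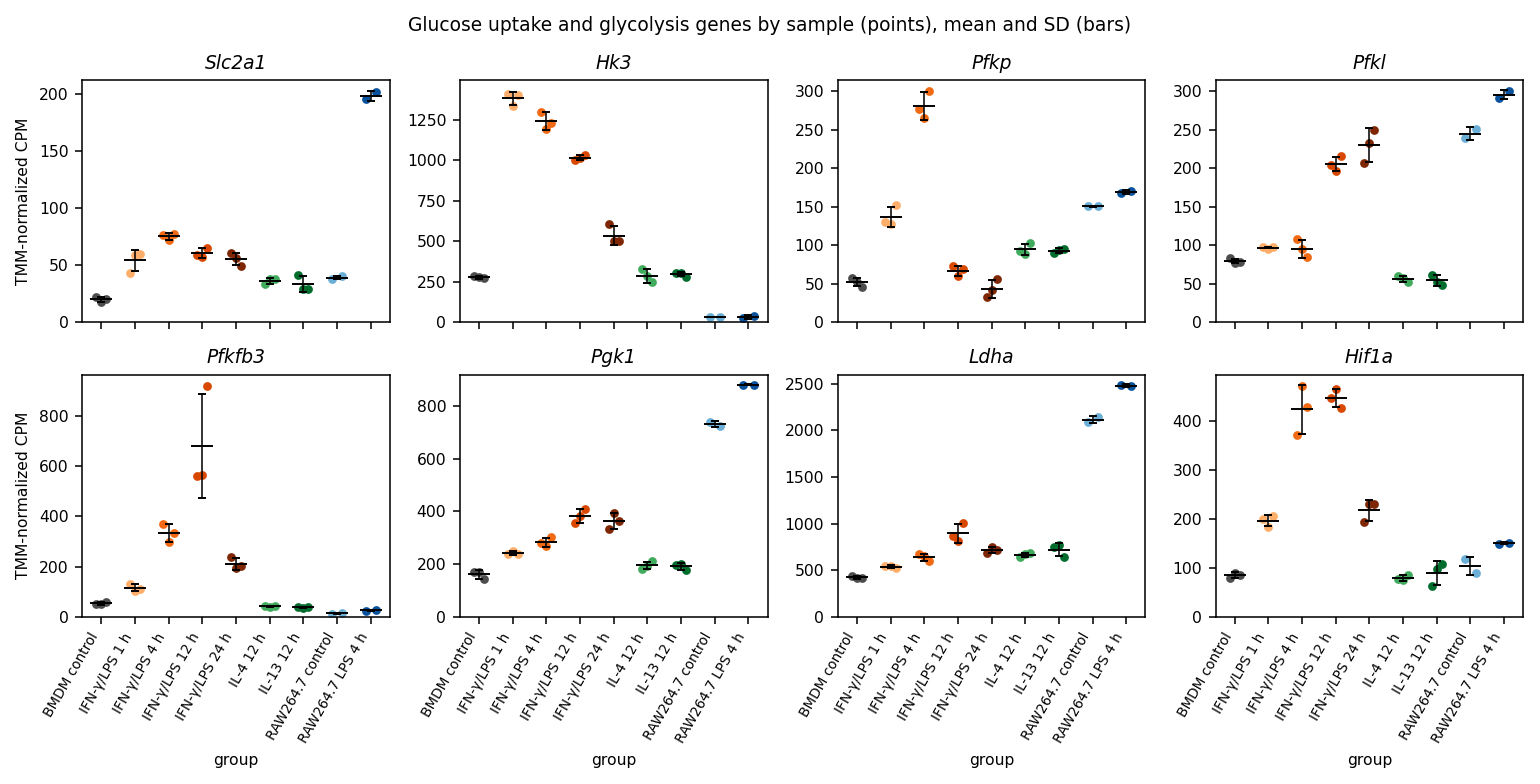
TMM-normalized CPM (y axis, from 0) of 8 genes of glucose uptake and glycolysis in every sample (points) of the 9 groups (x axis), with the mean and SD of each group. Hk3 is highest at 1 h, Slc2a1 and Pfkp at 4 h among BMDMs, Pfkfb3 at 12 h and Pfkl at 24 h among BMDMs, and the RAW264.7 samples lie far above all BMDM samples for Pgk1 and Ldha and below them for Hk3.

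In the oxidative branch of the pentose phosphate pathway, G6pdx fell and then rose, while Pgd was called higher at 12 and 24 h and not called before. G6pdx, glucose 6-phosphate dehydrogenase and the first NADPH-making step, was at 149.7, 154 and 136 CPM in control and 88.6, 94.8 and 89.4 CPM at 4 h. At 12 h it stood at 270.3, 260.1 and 283 CPM and at 24 h at 276, 305 and 302 CPM. The 4 h samples lay below and the 12 and 24 h samples above all control samples. Changes were −0.74 ± 0.11, edgeR adjusted p = 1.8e-07 at 4 h and 1.00 ± 0.096, edgeR adjusted p = 1.2e-12 at 24 h, and from 4 to 12 h 1.58 ± 0.11. The call at 1 h (−0.35 ± 0.10, edgeR adjusted p = 0.0068) was lost without control sample 1 or 2, 1 h sample 2 or 3, 4 h sample 3, 12 h sample 1 or 24 h sample 2 (log2 fold change of −0.34 to −0.30). Pgd, the other NADPH-making dehydrogenase, was at 341, 335 and 273 CPM in control and 431, 439.5 and 494 CPM at 12 h (0.48 ± 0.095, edgeR adjusted p = 2.9e-05), which was 0.16 and not called under library size scaling.

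The other branch rearranges sugars without NADPH. Taldo1, transaldolase, was lower at all 4 times, at 69.2, 51.5 and 68.4 CPM in control and 38.1, 33.4 and 32 CPM at 4 h. These groups did not overlap, and the change was −0.93 ± 0.17, edgeR adjusted p = 9.3e-06. Its 1 h call (−0.63) was lost without control sample 1 or 3 or 1 h sample 3 (log2 fold change of −0.57 to −0.49). Tkt, transketolase, was at 194, 170.3 and 162 CPM in control and 132, 147 and 139.5 CPM at 12 h, where it was called lower (−0.38 ± 0.10, edgeR adjusted p = 0.0018), and its call was lost without control sample 1 or 12 h sample 1 (log2 fold change of −0.33 to −0.29). Rpia, which makes ribose 5-phosphate, was called at 24 h (14.7, 19.4 and 22.3 CPM against 12.3, 7.05 and 10.2 CPM in control, 0.93 ± 0.26, edgeR adjusted p = 0.0018). That call was lost without control sample 2 or 24 h sample 3 (log2 fold change of 0.75 to 0.79), and library size scaling gave 0.71 without a call.

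At the pyruvate dehydrogenase gate, the genes measured were 2 kinases that switch the complex off and a subunit of the complex. Pdk1 was at 18.2, 20.6 and 15 CPM in control and 9.51, 9.65 and 9.61 CPM at 1 h, and at 10.3, 10.9 and 7.16 CPM at 24 h. No treated sample reached the lowest control sample (−0.99 ± 0.28, edgeR adjusted p = 0.0021 at 4 h). All 4 calls rest on few counts. The 1 h call was lost without control sample 1 or 2 or 1 h sample 1 or 3 (log2 fold change of −0.92 to −0.81) and the 4 h call without control sample 2 or 4 h sample 3 (log2 fold change of −0.87 to −0.83). At 12 h it was lost without control sample 1 or 2 or 12 h sample 1 or 3 (log2 fold change of −0.84 to −0.65), and at 24 h without control sample 2 or 24 h sample 3 (log2 fold change of −0.82 to −0.74). Pdk3 was at 11.3, 10.3 and 7.48 CPM in control and 13.9, 18.2 and 27.1 CPM at 12 h (0.97 ± 0.28, edgeR adjusted p = 0.0024). Its call was lost without control sample 3 or 12 h sample 3 (log2 fold change of 0.70 to 0.83), and library size scaling gave 0.66 without a call. Pdha1, the catalytic subunit, was at 80.5, 93.8 and 96.2 CPM in control and 92.4, 96.9 and 102 CPM at 12 h (0.061 ± 0.12, not called).

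In the TCA cycle, Idh1 stood apart. Its protein is the cytosolic isocitrate dehydrogenase that makes NADPH outside the cycle proper. Idh1 was at 64.4, 55.9 and 65.7 CPM in control, 24.1, 30.2 and 21.2 CPM at 1 h and 10.6, 7.77 and 13.9 CPM at 4 h. It was at 10.4, 5.2 and 6.47 CPM at 12 h and 12.7, 8.95 and 13.9 CPM at 24 h. All treated samples lay below all control samples, with −3.09 ± 0.22, edgeR adjusted p = 6.4e-17 at 12 h, the largest fall of the 39 genes at that time. The genes of the mitochondrial isocitrate dehydrogenases were not called lower at any of the 4 times. Idh3a, of the NAD-dependent enzyme, was at 33.8, 34.7 and 34.7 CPM in control and 41.6, 36.4 and 41.8 CPM at 12 h (0.17 ± 0.16, not called). It was called at 1 h, at 42, 60.5 and 48.6 CPM (0.51 ± 0.16, edgeR adjusted p = 0.0092), and that call was lost without control sample 1, 2 or 3, 1 h sample 2 or 3 or 24 h sample 3 (log2 fold change of 0.37 to 0.55). Idh2, of the NADP-dependent one, lay between 2.94 and 11.6 CPM in the BMDM samples and was called at no time. It rests on few counts. Its 4 h samples, at 3.54, 4.66 and 3.28 CPM, lay below the 8.05, 4.88 and 6.95 CPM of control. Under library size scaling Idh2 was at −1.35 at 4 h with a call.

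The malate dehydrogenases diverged. Mdh1, the cytosolic form, was at 172, 172 and 166 CPM in control and 94.1, 89.7 and 106 CPM at 12 h, without overlap (−0.86 ± 0.11, edgeR adjusted p = 1.2e-09). Mdh2, the mitochondrial form, was at 40.2, 30.9 and 29.4 CPM in control and 95.3, 71.1 and 85.9 CPM at 24 h, also without overlap (1.32 ± 0.15, edgeR adjusted p = 2.0e-10). At 12 h Mdh2 was at 0.67, a call lost without 12 h sample 2 (log2 fold change of 0.55), and scaling by library size gave 0.36 without one. Cs, citrate synthase, peaked at 121, 118 and 136 CPM at 4 h from 73, 73.2 and 67.9 CPM in control (0.75 ± 0.13, edgeR adjusted p = 1.7e-06), while library size scaling gave 0.22 and no call. Ogdh, of the oxoglutarate dehydrogenase complex, was called lower at 4 h (−0.47 ± 0.16, edgeR adjusted p = 0.0083), and that call was lost in 9 of the 15 fits that left out 1 sample, with values from −0.54 to −0.41. Sucla2, a succinyl-CoA ligase subunit, and Fh1, fumarase, were not called at any time, with changes of −0.23 to 0.30 and −0.39 to 0.15.

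**Figure D4:**
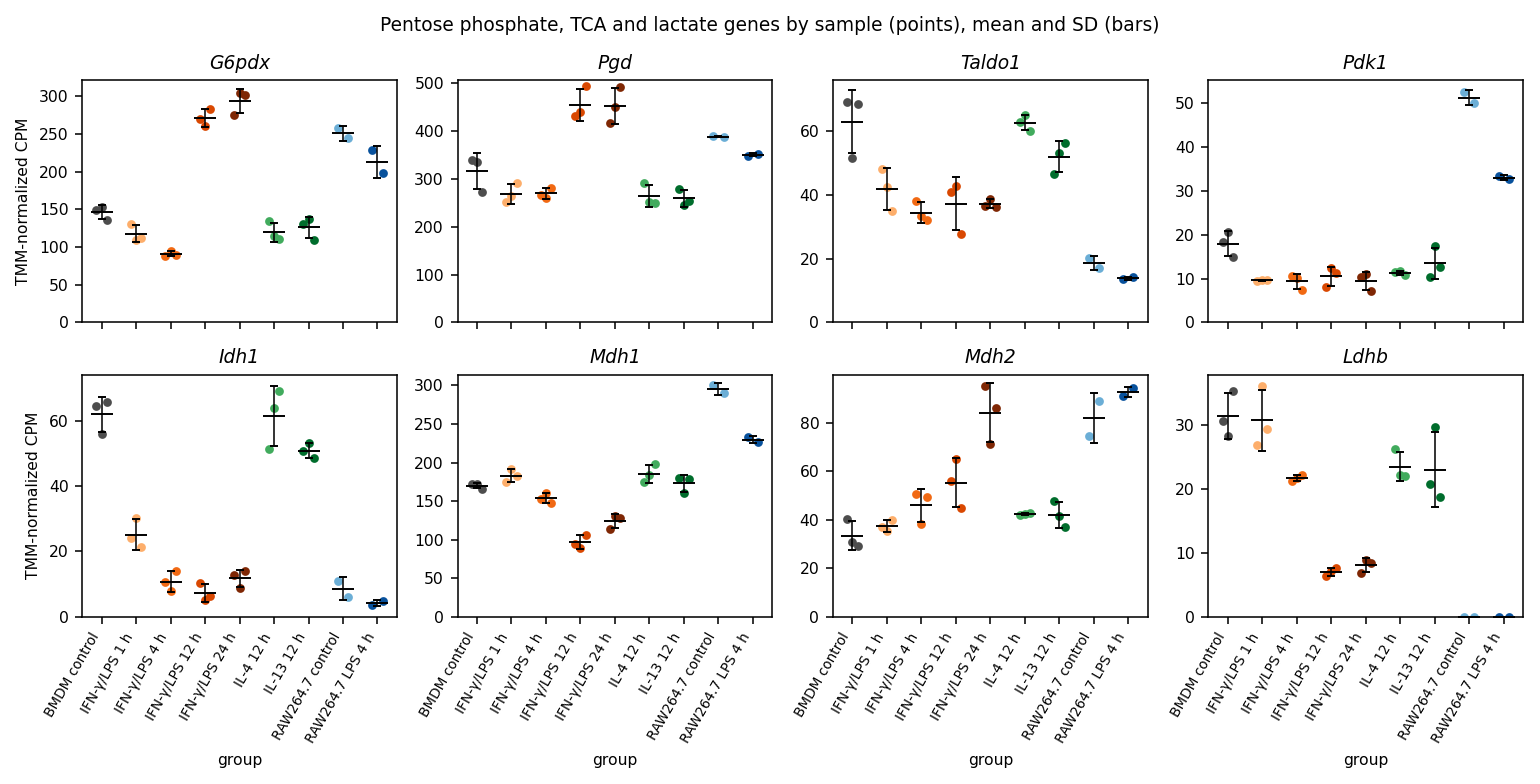
TMM-normalized CPM (y axis, from 0) of 8 genes of the pentose phosphate pathway, the pyruvate dehydrogenase gate, the TCA cycle and lactate use in every sample (points) of the 9 groups (x axis), with the mean and SD of each group. G6pdx dips at 4 h and is highest among BMDMs at 24 h, Idh1 and Ldhb drop to 10.4 CPM or less in the 12 h samples, and Ldhb is at 0 in all 4 RAW264.7 samples.

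Between 4 and 12 h of IFN-γ-primed LPS the control enters neither side. Here 11 of 39 genes were higher at 12 h and 8 lower, beside 16.7% and 19.2% of all genes tested. Under library size scaling 17 were higher and 7 lower. All 3 hexokinases were lower at 12 h, with Hk2 at −0.74 ± 0.15 (edgeR adjusted p = 6.2e-05) and Hk1 at −1.26 ± 0.25 (edgeR adjusted p = 8.4e-05). For Hk3 the change of −0.28 ± 0.085 was lost without 4 h sample 1 or 3 or 12 h sample 1 or 2 (log2 fold change of −0.29 to −0.25), and it was −0.058 without a call under library size scaling. Higher at 12 h were Pfkl, Aldoa, Tpi1, both Pfkfb genes, Pgk1, Pgam1, Ldha, G6pdx and Pgd, and Pfkm, whose call was lost without 4 h sample 1 or 2 or 12 h sample 1 or 2 (log2 fold change of 0.84 to 1.16). Lower beside the hexokinases were Pfkp, Aldoc, Ldhb, Cs and Mdh1.

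IL-4 and IL-13 are cytokines of alternative activation and share a receptor subunit. With IL-4, 5 of 39 genes were higher and 1 lower than in control, beside 4.38% and 3.25% of all genes tested. With IL-13, 4 were higher and 3 lower, beside 5.61% and 4.49%. The comparisons share their 3 control samples. A technical measure moved with these groups. Counts on the opposite strand of Rn45s made up 0.00603% to 0.0214% of its counts in the 24 h, IL-4 and IL-13 samples and 0.0386% to 0.122% in the control, 1, 4 and 12 h samples, without overlap, and its part in these results was not tested.

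Pfkfb4 was the gene with the largest rise among the 39 under both cytokines. It was at 26.8, 20.1 and 34.2 CPM in control, 59.7, 50.6 and 47.1 CPM with IL-4 and 61, 69 and 60.2 CPM with IL-13. All 6 cytokine samples stood above the controls, with 0.95 ± 0.17, edgeR adjusted p = 2.0e-05 for IL-4 and 1.21 ± 0.16, edgeR adjusted p = 3.0e-08 for IL-13. Pfkp was at 92.7, 89.5 and 103 CPM with IL-4 and 89.7, 94.6 and 95.6 CPM with IL-13, above the 57.4, 52.6 and 46.5 CPM of control (0.85 and 0.82, edgeR adjusted p = 6.1e-07 and 8.6e-07). Ldha rose as well, to 644, 675 and 683 CPM with IL-4 and 748, 771 and 646 CPM with IL-13 (0.64 and 0.74, edgeR adjusted p = 2.5e-08 and 2.2e-10). These groups did not overlap with control either.

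Other genes were called with 1 or both cytokines. Slc2a1 was at 33.5, 37.8 and 38.2 CPM with IL-4 and 42, 29.7 and 29.4 CPM with IL-13 (0.83 and 0.70, edgeR adjusted p = 8.0e-04 and 0.0048). Its IL-13 call was lost without control sample 2 or 3 or IL-13 sample 1 (log2 fold change of 0.52 to 0.73). Pfkl was lower, at 60.2, 57.2 and 52.5 CPM and 62.1, 52.2 and 49.1 CPM (−0.50 and −0.58, edgeR adjusted p = 0.0038 and 5.8e-04), and its IL-4 call was lost without control sample 1, 2 or 3 or IL-4 sample 1, 2 or 3 (log2 fold change of −0.55 to −0.45). Idh3a was higher with IL-4 (0.54 ± 0.15, edgeR adjusted p = 0.0083), a call lost without control sample 1, 2 or 3 or IL-4 sample 1, 2 or 3 (log2 fold change of 0.50 to 0.61). With IL-13, Slc16a3 was lower (−0.65 ± 0.18, edgeR adjusted p = 0.0074), lost without control sample 1, 2 or 3, IL-4 sample 2 or IL-13 sample 3 (log2 fold change of −0.67 to −0.49), and so was Pfkfb3 (−0.54 ± 0.14, edgeR adjusted p = 0.0052), lost without control sample 1 or 3, IL-4 sample 2 or IL-13 sample 2 or 3 (log2 fold change of −0.56 to −0.45). Under library size scaling neither of these was called with IL-13 (−0.61 and −0.50). None of the 5 pentose phosphate genes was called with either cytokine, with median log2 fold changes of −0.020 and −0.24. Hif1a was at 77.5, 75 and 85.9 CPM with IL-4 and 62.7, 98.7 and 108 CPM with IL-13, overlapping with control (−0.12 ± 0.13 and 0.062 ± 0.13, not called). Idh1 was at 51.3, 63.9 and 69.2 CPM with IL-4 and 50.6, 53.2 and 48.6 CPM with IL-13 (−0.031 ± 0.13 and −0.31 ± 0.14, not called).

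Set against each other, IL-13 and IL-4 differed in 0 of 39 genes by edgeR and in 0 by DESeq2, and 3 genes had an unadjusted p under 0.05 in edgeR. Of all genes tested, 0.0865% were higher with IL-13 and 0.0216% lower. The differences of the 39 genes ran from −0.28 for Idh1 to 0.82 for Aldoc on the log2 scale, with a median SE of 0.14. Aldoc, Idh1 and Taldo1 were the 3 genes with the unadjusted p under 0.05. Differences of the size of that SE cannot be seen with 3 samples a group.

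At 12 h, IFN-γ-primed LPS was also compared with each cytokine directly, without the control. Of the 39 genes, 15 stood higher and 7 lower than with IL-4, beside 22.1% and 20.6% of all genes tested. Than with IL-13, 15 stood higher and 5 lower, beside 21.9% and 20.3%. With library size scaling, under which the median of all genes moved to −0.37 and −0.40, the splits became 12 and 12 for IL-4 and 10 and 15 for IL-13. The samples differ in the same way in the antisense counts of Rn45s given above, and the part of this was not tested. Higher than with either cytokine were Slc2a1, Slc16a3, Hk2, Hk3, Pfkl, Aldoa, Tpi1, Pfkfb3, Gapdh, Pgk1, Pkm, Ldha, G6pdx, Pgd and Hif1a. The largest difference was that of Pfkfb3, with 4.00 ± 0.17, edgeR adjusted p = 1.0e-14 for IL-4 and 4.19 ± 0.18, edgeR adjusted p = 5.3e-15 for IL-13. Hif1a followed (2.32 ± 0.13, edgeR adjusted p = 1.3e-17 for IL-13). Ldha was 0.44 above IL-4 and 0.33 above IL-13, but under library size scaling these were 0.079 and −0.063 and not called, so that the second turned. The IL-13 call of Ldha was also lost without 12 h sample 3, IL-4 sample 1 or 2 or IL-13 sample 3 (log2 fold change of 0.24 to 0.33).

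Lower than with either cytokine were Pfkp, Pfkfb4, Ldhb, Idh1 and Mdh1. Idh1 was −3.02 ± 0.22, edgeR adjusted p = 2.3e-14 against IL-4, and Pfkfb4 was −1.34 ± 0.18, edgeR adjusted p = 5.9e-08. Taldo1 and Fh1 were lower against IL-4 (−0.75 and −0.57, edgeR adjusted p = 1.2e-04 and 0.0049) and not called against IL-13 (−0.48 and −0.43), a contrast between the cytokines that was called for neither gene when tested directly. The Fh1 call was lost without 12 h sample 2 or IL-4 sample 1 or 2 (log2 fold change of −0.53 to −0.42), and those of Pfkp without 12 h sample 2 or IL-4 sample 3 (log2 fold change of −0.43 to −0.41) for IL-4 and without 12 h sample 2 or IL-13 sample 2 (log2 fold change of −0.45 to −0.38) for IL-13.

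RAW264.7 cells given LPS for 4 h were tested in a fit of their own with 4 samples. Its number of calls is therefore not set against that of the time course, whose fit held 15. Of the 37 genes tested there, without Eno1, Eno2 and Ldhb, 9 were higher and 4 lower than in control RAW264.7, beside 15.1% and 12.8% of all genes tested. Scaling by library size gave 5 higher and 13 lower, with a median of −0.18 over all genes. Slc2a1 had the largest rise, from 38.2 and 40.6 CPM to 196 and 202 CPM (2.37 ± 0.12, edgeR adjusted p = 3.4e-91). Slc16a3 went from 226 and 244 CPM to 369 and 392 CPM (0.74 ± 0.079, edgeR adjusted p = 2.5e-19), and Hk2 from 15.3 and 17 CPM to 31.5 and 30.1 CPM (0.97 ± 0.20, edgeR adjusted p = 7.7e-06). The samples of these groups did not overlap. Pfkfb3, Pfkl, Aldoa, Pgk1, Ldha and Hif1a were the other genes called higher, with Hif1a at 118 and 90.2 CPM in control and 148 and 151 CPM with LPS (0.57 ± 0.10, edgeR adjusted p = 1.9e-07). The calls of Pfkl, Aldoa, Ldha and Pgk1 (changes of 0.20 to 0.31) were absent under library size scaling, where they were 0.13, 0.016, 0.089 and 0.13.

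Hk1 was lower in RAW264.7 with LPS, at 7.17 and 4.5 CPM against 13.9 and 16.3 CPM (−1.34 ± 0.31, edgeR adjusted p = 7.3e-05). It rests on few counts, and the call was lost without RAW264.7 LPS sample 2 (log2 fold change of −1.03). Pdk1 fell from 52.4 and 50.0 CPM to 33.5 and 32.6 CPM (−0.59 ± 0.15, edgeR adjusted p = 6.4e-04), a call lost without RAW264.7 control sample 1 or RAW264.7 LPS sample 1 or 2 (log2 fold change of −0.60 to −0.55). Mdh1 fell from 301 and 290.2 CPM to 233 and 226 CPM (−0.32 ± 0.082, edgeR adjusted p = 4.0e-04) and Idh3a from 262 and 259 CPM to 217 and 203 CPM (−0.27 ± 0.084, edgeR adjusted p = 0.0045). The Mdh1 call was lost without RAW264.7 control sample 1 or RAW264.7 LPS sample 2 (log2 fold change of −0.30 to −0.29), and that of Idh3a in each of the 4 fits without 1 sample. Such a fit leaves an arm of 1 sample that is assumed to vary like the other arm. Among the genes called higher, Aldoa lost its call without any of the 4 samples, Pfkl without RAW264.7 control sample 1 or RAW264.7 LPS sample 2 (log2 fold change of 0.28 to 0.29), Pfkfb3 without RAW264.7 LPS sample 2 (log2 fold change of 0.82) and Ldha without RAW264.7 control sample 1 (log2 fold change of 0.26). Hk3 was at 35.7 and 35.5 CPM in control RAW264.7 and 27.1 and 42.3 CPM with LPS (0.019 ± 0.16, not called).

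The untreated cells differed widely. Between control RAW264.7 and control BMDMs, 25 of 39 genes were higher and 8 lower in RAW264.7, beside 32.9% and 34.7% of all genes tested, so higher genes were more frequent here than over all genes and lower ones less so. Among the higher ones were both transporters, 6 of 7 genes of upper glycolysis, 4 of 5 tested genes of lower glycolysis, 4 of 5 pentose phosphate genes and all 3 of the pyruvate dehydrogenase gate. The lower glycolysis genes were Gapdh, Pgk1, Pgam1 and Pkm. Of these, Gapdh, Pgk1 and Pgam1 share 78.0%, 67.0% and 39.7% of their stretches with other genes, so their levels are uncertain. Pkm was at 7892 and 8178 CPM in control RAW264.7 against 1603, 1497 and 1499 CPM in control BMDMs (2.36 ± 0.084, edgeR adjusted p = 9.8e-61), Ldha at 2087 and 2145 CPM against 443, 420.4 and 414 CPM (2.28 ± 0.086, edgeR adjusted p = 1.3e-57), and Slc16a3 at 226 and 244 CPM against 40.2, 38 and 36.9 CPM (2.58 ± 0.12, edgeR adjusted p = 1.0e-45). For each, every RAW264.7 sample stood above every BMDM sample of the 7 groups, treated ones included. The 22 glycolysis genes summed to 16010 ± 355 CPM in control RAW264.7, of which Pkm gave a mean of 8035 CPM. In the TCA cycle, Idh3a was at 262 and 259 CPM and Fh1 at 238 and 249 CPM, against 33.8, 34.7 and 34.7 and 37.5, 41.8 and 34.2 CPM in control BMDMs (2.89 and 2.65, edgeR adjusted p = 2.3e-51 and 2.0e-47).

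Lower in control RAW264.7 were Hk2, Hk3, both Pfkfb genes, Eno2, Ldhb, Taldo1 and Idh1. Hk3, at 35.7 and 35.5 CPM, was far under the 287, 278 and 271 CPM of control BMDMs (−2.99 ± 0.13, edgeR adjusted p = 1.4e-51), and made up 68.4% ± 2.08 (SD, n = 2) of hexokinase per kb. Ldhb had no count in any RAW264.7 sample. Taking a floor of 3 counts per library (1.09 CPM), it was at least 28.8-fold lower than in control BMDMs, and at least 18.2-fold lower with LPS than in BMDMs at 4 h. Idh1 was at 11.1 and 6.16 CPM (−2.86 ± 0.20, edgeR adjusted p = 2.7e-28) and Eno2 at 1.04 and 0.725 CPM (−4.19 ± 0.45, edgeR adjusted p = 7.0e-16). The higher calls of Pdk3, Sucla2 and Pgd and the lower call of Hk2 were each lost without 1 or more samples, namely for Pdk3 without control sample 3 or RAW264.7 control sample 2 (log2 fold change of 0.68 to 0.71), for Sucla2 without control sample 3 or RAW264.7 control sample 2 (log2 fold change of 0.41 to 0.42), for Pgd without control sample 3 or RAW264.7 control sample 1 or 2 (log2 fold change of 0.17 to 0.29) and for Hk2 without control sample 3 or RAW264.7 control sample 1 (log2 fold change of −0.65 to −0.50).

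The change at 4 h was tested for a difference between RAW264.7 and BMDMs by an interaction term. It was called for 11 of 39 genes. In 3 the change in RAW264.7 was more positive and in 8 more negative, beside 11.1% and 16.4% of all genes tested. Under library size scaling, which moves the median of all genes to 0.47, it was 12 and 6. Hk3 rose in BMDMs (2.10) and was at 0.019 in RAW264.7, a difference of −2.17 ± 0.19, edgeR adjusted p = 9.2e-21. Hk1 rose in BMDMs and fell in RAW264.7, with a difference of −2.72 ± 0.37, edgeR adjusted p = 1.3e-10. Pfkp, Pfkfb3 and Hif1a had changes of 2.37, 2.58 and 2.26 in BMDMs against 0.21, 0.93 and 0.57 in RAW264.7. For Slc2a1 the changes were 1.84 and 2.37, and their difference of 0.45 ± 0.22 was not called (edgeR adjusted p = 0.11). Called with a smaller size were Gapdh and Pgk1 (−0.65 and −0.53), which were −0.22 and −0.096 and not called under library size scaling, and Cs (−1.17). More positive in RAW264.7 were Pfkfb4 (1.63), Idh1 (1.52) and Pgam1 (0.50). The Idh1 call was lost without 4 h sample 2, RAW264.7 control sample 2 or RAW264.7 LPS sample 1 or 2 (log2 fold change of 1.15 to 1.70) and the Pgam1 call in 9 of the 10 fits that left out 1 sample. For Aldoa the difference was −0.058 and not called, and library size scaling turned it to 0.38 with a call. As RAW264.7 received LPS without IFN-γ, the cell and the stimulus cannot be told apart.

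**Figure D5:**
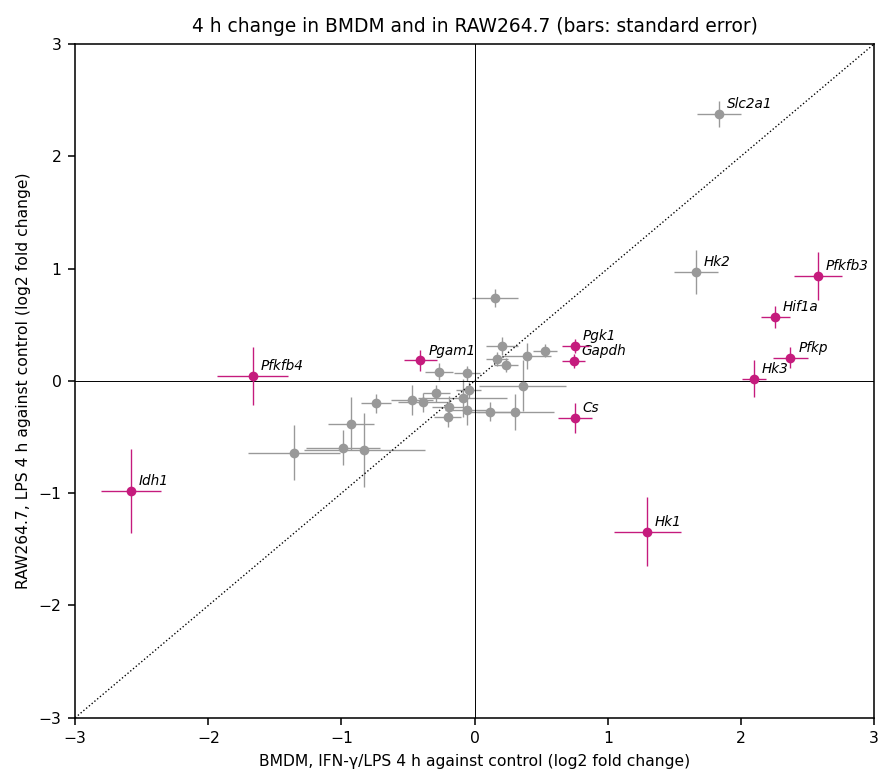
Log2 fold change at 4 h in RAW264.7 with LPS (y axis) against that in BMDMs with IFN-γ-primed LPS (x axis), each against its own control, with SE bars, for the 37 genes tested in both. Pink points differ between the cells by the interaction test (adjusted p of at most 0.01), and the dotted line marks equal changes. Hk3, Hk1, Pfkp, Pfkfb3 and Hif1a lie far below the line, and Slc2a1 lies above it without a call.

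Other genes of the same pathways, from lists fixed for this report, are given by counts at 12 h of IFN-γ-primed LPS, where 23.9% of all genes were higher and 23.4% lower. Of 9 other transporters tested, 2 were higher and 4 lower. Slc2a6, a lysosomal hexose transporter, was at 11.8, 8.14 and 12.8 CPM in control, 1542, 1408 and 1401 CPM at 4 h and 1165, 1141 and 1128 CPM at 12 h (6.65 ± 0.14, edgeR adjusted p = 2.1e-38 at 12 h). It was at 89.2 and 96.7 CPM in control RAW264.7 and 106 and 105 CPM with LPS (0.22 ± 0.11, not called). Slc16a1, the lactate carrier MCT1, rose (1.18), and Slc16a7 and Slc2a8 fell (−2.30 and −1.59). Of 11 other glycolysis genes, 2 were higher and 3 lower, with Minpp1 at 1.12, Pgm2 at 0.70, Pgm2l1 at −1.97 and Pfkfb2 at −1.24. Of 7 other pentose phosphate genes, 2 were higher and 1 lower. Rpe, which interconverts pentose phosphates, was at 1.39, Dera at 0.65 and Prps2, which makes the precursor of nucleotides, at −0.76.

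Around pyruvate entry, 1 of 13 other genes was higher and 4 lower at 12 h. Pdp1, the phosphatase that switches pyruvate dehydrogenase on, was at 75.1, 65.1 and 73.8 CPM in control and 18.5, 14.3 and 16.5 CPM at 12 h (−2.15 ± 0.19, edgeR adjusted p = 3.3e-14). With IL-4 and IL-13 it was higher, at 99.5, 102 and 93 CPM and 94.9, 102 and 98.2 CPM (0.45 and 0.45, edgeR adjusted p = 0.005 and 0.0041), and with LPS in RAW264.7 it was lower (−1.54, edgeR adjusted p = 4.2e-06). Pdk4, another kinase of the complex, fell to a few counts (−2.78), and Pdhb, a subunit, rose (0.49). Of 23 other TCA genes, 6 were higher and 5 lower. Irg1, which turns aconitate into itaconate, was at 2.15, 5.42 and 4.28 CPM in control and 16840, 16860 and 14580 CPM at 4 h (11.91 ± 0.17, edgeR adjusted p = 1.0e-43). It was at 3926 and 3864 CPM in RAW264.7 with LPS against 7.98 and 7.61 CPM. Slc25a10, the dicarboxylate carrier, rose (1.04), while Suclg2 and Got1 fell (−1.39 and −0.73).

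Of 14 other genes of the HIF axis, 3 were higher and 4 lower at 12 h. P4ha1, a collagen prolyl hydroxylase, was at 80.5, 100.4 and 89.2 CPM in control and 261, 261 and 291 CPM at 12 h (1.54 ± 0.11, edgeR adjusted p = 2.5e-17), and Bnip3 was at 1.09. Epas1, which encodes HIF-2α, fell from 15.6, 19.5 and 21.9 CPM in control to 2.8, 3.22 and 2.02 CPM at 1 h and 1.16, 0 and 0.589 CPM at 12 h (−4.86 ± 0.49, edgeR adjusted p = 4.8e-12). Ndrg1, a gene known to respond to low oxygen, was at 25.8, 19.5 and 19.2 CPM in control and 1.73, 2.6 and 0 CPM at 12 h (−3.91 ± 0.42, edgeR adjusted p = 2.7e-11). With IL-4, 2 of the 13 genes tested on this list were higher and 1 lower, beside 4.38% and 3.25% of all genes, and with IL-13, 3 and 2, beside 5.61% and 4.49%. In RAW264.7 with LPS, 3 of 13 were higher and 0 lower, beside 15.1% and 12.8%.

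Over the 13 comparisons, 215 calls were made for these genes. Of these, 172 remained whichever 1 sample was left out, and 43 were lost in 1 or more of those fits.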

How the data were processed

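RNA was sequenced from 21 BMDM and 4 RAW264.7 samples. The authors deposited counts of reads per gene for each sample, made with STAR 2.5.1 on mm10 after base calling in CASAVA 1.8.2 and trimming in Trimmomatic 0.33, per the submitters' processing notes. The annotation release was not given in the sources used here. Counts of the sense strand were used. Rn45s and the rows that name no gene were left out, the no-feature row taking 62.7% to 69.1%.

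Counts were tested in edgeR 4.0.16 (R 4.3.3) with TMM, filterByExpr (minimum count 10), a robust quasi-likelihood fit and Benjamini-Hochberg adjustment over all genes tested, at a threshold of 0.01. The fits held 15 samples (time course), 9 (IL-4 and IL-13), 9 (12 h of IFN-γ-primed LPS and both cytokines), 4 (RAW264.7) and 10 (RAW264.7 against BMDMs, with the interaction). The SE is the size of the log2 fold change divided by the square root of F. CPM used TMM over all 25 samples, and CPM per kb the exon length of GENCODE M21. The scripts were tested on simulated data. Tables and plots used Python 3.11.15, pandas 2.3.3 and matplotlib 3.10.9.

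The genes and lists were chosen with earlier results of these data known. All 40 genes are named, and of each other list up to 2 called rises and 2 called falls that were largest at 12 h, at 5 CPM or more on the higher side. Alternatives were DESeq2 1.42.0, its size factors, no filter, unstranded counts, Rn45s kept, the study's fold cutoffs, a replicate block, all BMDMs in 1 fit, each sample left out and, chosen after seeing the data, library size without TMM and the longest coding transcript as the length behind CPM per kb. BMDMs given LPS alone were not analysed here.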

Additional observations from a re-analysis of the deposited data

Results flagged for a closer look

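The change at 4 h differed between RAW264.7 with LPS and BMDMs with IFN-γ-primed LPS, by the interaction term, in 11 genes. The values are log2 differences, RAW264.7 minus BMDM, and their adjusted p by edgeR was at most 0.01. More negative in RAW264.7 were Hk1 (−2.72), Pfkp (−2.25), Hk3 (−2.17), Hif1a (−1.78), Pfkfb3 (−1.73), Cs (−1.17), Gapdh (−0.65) and Pgk1 (−0.53). More positive were Pfkfb4 (1.63), Idh1 (1.52) and Pgam1 (0.50). Cell source, mouse strain, medium and IFN-γ priming differ together here and cannot be told apart. No group had more than 3 samples, so no test for a far-off sample was made.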

How the results depend on the processing

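DESeq2's size factors, no filter, unstranded counts and keeping Rn45s moved no count of called genes by over 1.5 times. Scaling by library size alone, chosen after seeing the data, gave 7 lower at 1 h, 7 higher and 20 lower at 4 h, 12 lower at 12 h, 17 higher at 12 against 4 h, 1 lower with IL-13, 12 and 15 lower at 12 h against IL-4 and IL-13, 5 higher and 13 lower in RAW264.7 with LPS and 12 more positive in the interaction. It reversed Ldha (−0.0027), Aldoa (−0.36) and Pkm (−0.30) at 4 h, Ldha at 12 h against IL-13 (−0.063) and Aldoa in the interaction (0.38). DESeq2 gave 2 lower at 1 h, 5 lower at 4 h, 0 lower with IL-4, 1 lower with IL-13, 5 higher and 0 lower in RAW264.7 and 1 more positive in the interaction. All 21 BMDM samples in 1 fit gave 1 lower with IL-13. The study's fold cutoffs (log2 of 1.5, or 0.7 for the cytokines and 2 for RAW264.7) left 1 higher and 0 lower at 1 h, 6 and 2 at 4 h, 4 and 2 at 12 h, 2 and 3 at 24 h, 1 and 2 at 12 against 4 h, 3 and 0 with IL-4, 0 lower with IL-13, 4 and 2 against IL-4, 4 and 3 against IL-13, 1 and 0 in RAW264.7, 12 higher in RAW264.7 against BMDM control and 5 more negative in the interaction. Fewer calls follow there from the stricter rule itself. For the other settings the cause was not tested.

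Leaving out 1 sample gave 1 to 4 lower genes at 1 h (1 without control sample 1 or 1 h sample 3, 2 without control sample 2), 5 to 9 at 4 h (5 without 4 h sample 2 or 3) and 4 to 7 at 12 h (4 without control sample 1). It gave 0 to 2 lower with IL-4 (0 without any control or IL-4 sample 2 or 3, 2 without IL-13 sample 1 or 3) and 1 to 4 with IL-13 (1 without control sample 1, IL-4 sample 2 or IL-13 sample 3). In RAW264.7 it gave 6 to 8 higher and 0 to 4 lower (1 without control sample 1, 2 without LPS sample 1, 0 without LPS sample 2), and in the interaction 1 to 4 more positive (1 without BMDM 4 h sample 2, RAW264.7 control sample 2 or LPS sample 1).

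With the replicate number as a replicate block, 2 genes were lower with IL-4 in place of 1, and no other count moved by over 1.5 times. Deviations of samples with the same number had a mean r of 0.0199 in the time course (−0.0516 to 0.152) and of 0.00714 with the cytokines. No shared deviation was thus seen over the genes as a whole. With few counts for many genes, this cannot exclude that samples of the same number share a mouse or a batch. At 1 count per 0.347 to 0.886 CPM, changes of genes near 10 CPM such as Pdk3, Rpia, Aldoc and Idh2 are known least well.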
